A study of Mus musculus with 17 samples.

Results

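Pdgfra, Pdgfrb, Fap, Lrrc15, Postn, Tnc, Sparc, Fn1, Dcn and Lum mark the fibroblasts of a tissue and the reactive stroma that forms around tumours. These 10 genes were chosen by symbol, as markers of resident and reactive fibroblasts other than collagens, by a rule that uses no measured value, though earlier results of these data were known. All 10 were found among the 13905 genes of the genotype table and among the 39179 genes of the inducible table.

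Fibroblasts build the matrix between the cells of an organ. Decorin (Dcn) and lumican (Lum) are small leucine-rich proteoglycans that bind collagen fibrils, and fibroblasts at rest make them in quantity. Fibroblasts that are activated, in wound repair or beside a carcinoma, are known for fibronectin (Fn1), tenascin C (Tnc), periostin (Postn) and SPARC, and for the surface proteins fibroblast activation protein (Fap) and Lrrc15. The platelet-derived growth factor (PDGF) receptors Pdgfra and Pdgfrb are tyrosine kinases through which mesenchymal cells respond to PDGF, Pdgfra mostly in fibroblasts and Pdgfrb also in pericytes and smooth muscle.

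RNA sequencing was carried out on frozen prostate tissue or prostate tumour of C57BL/6 mice. Wild-type prostate (n = 3) came from animals of 12 months. Tumours of the Ctnnb1 group (n = 3, about 12 months) were Ctnnb1pc(ex3)delta/+, carrying a beta-catenin allele without exon 3, whose product lacks the sites that trigger its degradation. Tumours of the combined group (n = 3, about 6 to 8 months) carried that allele together with a further engineered change. Tumours of the inducible model (about 15 months) carried the combined changes under an inducible Cre, which acts once tamoxifen is given, and were mock treated (n = 2) or ADT treated (n = 3), ADT being androgen deprivation. The combined tumours came from younger mice than wild type, so age and genotype cannot be told apart in that comparison. The labels do not say that each library came from a separate animal, so the p-values measure the spread between these samples, which may be technical.

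The promoters of 3 genes of activated fibroblasts are shown first, as the 150 bases before the RefSeq start site (GRCm38.p6), 5′ to 3′ on the strand of the gene, with matches to the searched letters in capitals. Lrrc15 (chr16:30283255-30283404, minus strand) differed most between wild type and both tumour groups, Tnc (chr4:64047016-64047165, minus strand) came next in the combined group, and Postn (chr3:54360957-54361106, plus strand) was called in neither.
Lrrc15: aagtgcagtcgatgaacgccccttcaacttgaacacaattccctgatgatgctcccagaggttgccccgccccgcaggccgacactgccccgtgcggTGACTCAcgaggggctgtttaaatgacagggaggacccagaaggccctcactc
Tnc: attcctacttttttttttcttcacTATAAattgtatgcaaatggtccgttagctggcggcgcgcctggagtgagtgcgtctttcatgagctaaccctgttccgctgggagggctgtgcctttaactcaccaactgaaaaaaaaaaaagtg
Postn: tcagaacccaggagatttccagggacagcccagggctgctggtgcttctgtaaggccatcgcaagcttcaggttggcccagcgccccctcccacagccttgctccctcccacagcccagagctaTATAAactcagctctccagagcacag
The letters searched, on both strands of the 250 bases before the start, were TATAA (the TATA box), TGANTCA (the AP-1 element), CTTTGAT (bound by TCF/LEF factors, through which beta-catenin acts on DNA) and GGAATG (TEAD). Lrrc15 held TGACTCA from 53 to 47 bases before its start, and 6.75% of 32851 promoters held an AP-1 match in their 250 bases. Postn held TATAA from 26 to 22 bases and Tnc from 126 to 122 bases before the start, and 22.8% of promoters held TATAA. The TCF/LEF letters, found in 3.21% of promoters, and the TEAD letters, found in 12.6%, had no match in these 3 promoters or in those of Pdgfra and Sparc, which held none of the searched letters. Such a match describes these letters only. Fap, Fn1, Dcn and Lum are not among the promoters used, and the Pdgfrb promoter is not printed or searched here.

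Values are gene read counts that the authors divided by a size factor for each library and rounded, so levels in the genotype table and in the inducible table, which were scaled separately, are not compared. A size factor brings libraries of unequal depth to a common scale. In the wild-type libraries 19.0% to 23.0% of the whole numbers from 1 to 200 never occur, so 1 read was worth more than 1 unit there, and a wild-type value of 1 to 3 stands for very few reads. Combined replicate 12 stands apart from the other two combined libraries: it was the lowest of its group for all 10 genes. ADT replicate 1 was the highest ADT library for all 10, and mock replicate 1 exceeded mock replicate 2 for all 10. For called results that leaving out 1 library moves by over 1.5 times, the value without it is given beside them.

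Together the 10 genes took 0.0746%, 0.0737% and 0.0766% of the summed values of wild-type libraries 1 to 3. In the Ctnnb1 tumours (replicates 13 to 15) their share was 0.0805%, 0.0768% and 0.0823%, and in the combined tumours (replicates 10 to 12) it was 0.461%, 0.726% and 0.130%. In the inducible model it was 1.01% and 0.294% in the mock and 1.11%, 0.274% and 0.206% in the ADT libraries. The combined tumours thus held a larger share than any wild-type library, and the share in the Ctnnb1 tumours lay just above the wild-type range. Their summed values in the Ctnnb1 tumours (21876, 21133 and 22008) lay below those in wild type (28571, 27428 and 29860), and the total over all genes was lower there too (26754772 to 27522308 against 37222233 to 38995268). In bulk tissue, fewer cells of a type and less RNA per cell cannot be told apart.

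Relative to gene length, decorin led in wild-type prostate at 2111 ± 113 units per kb of exon (SD, n = 3, as for the following), with Sparc close behind at 1914 ± 116. Dcn exceeded Sparc per kb in all 3 wild-type libraries, though by little more than the spread between them. Fn1 (399.5 ± 96.3) and Lum (270.2 ± 63.5) followed, and Postn stood at 189 ± 39.5. Pdgfra (116 ± 2.37) and Pdgfrb (109.7 ± 21.5) did not differ beyond their spread. Tnc reached 33.6 ± 2.34 units per kb, Fap 7.42 ± 2.04 and Lrrc15 0.314 ± 0.217, so the activated surface markers stood last. In the combined tumours the order began with Sparc at 11120 ± 7694, Fn1 at 3164 ± 2135 and Dcn at 3119 ± 1896 units per kb. The spread between libraries was wide, and within each of the 3 combined libraries Sparc exceeded both, at 12193, 18222 and 2946 units per kb against 3299, 5229 and 965 for Fn1 and 3108, 5021 and 1229 for Dcn. In the Ctnnb1 tumours it began with Sparc at 1749 ± 190.3, Dcn at 658 ± 123 and Fn1 at 616 ± 98.4, of which Dcn and Fn1 did not differ beyond their spread.

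**Figure D1:**
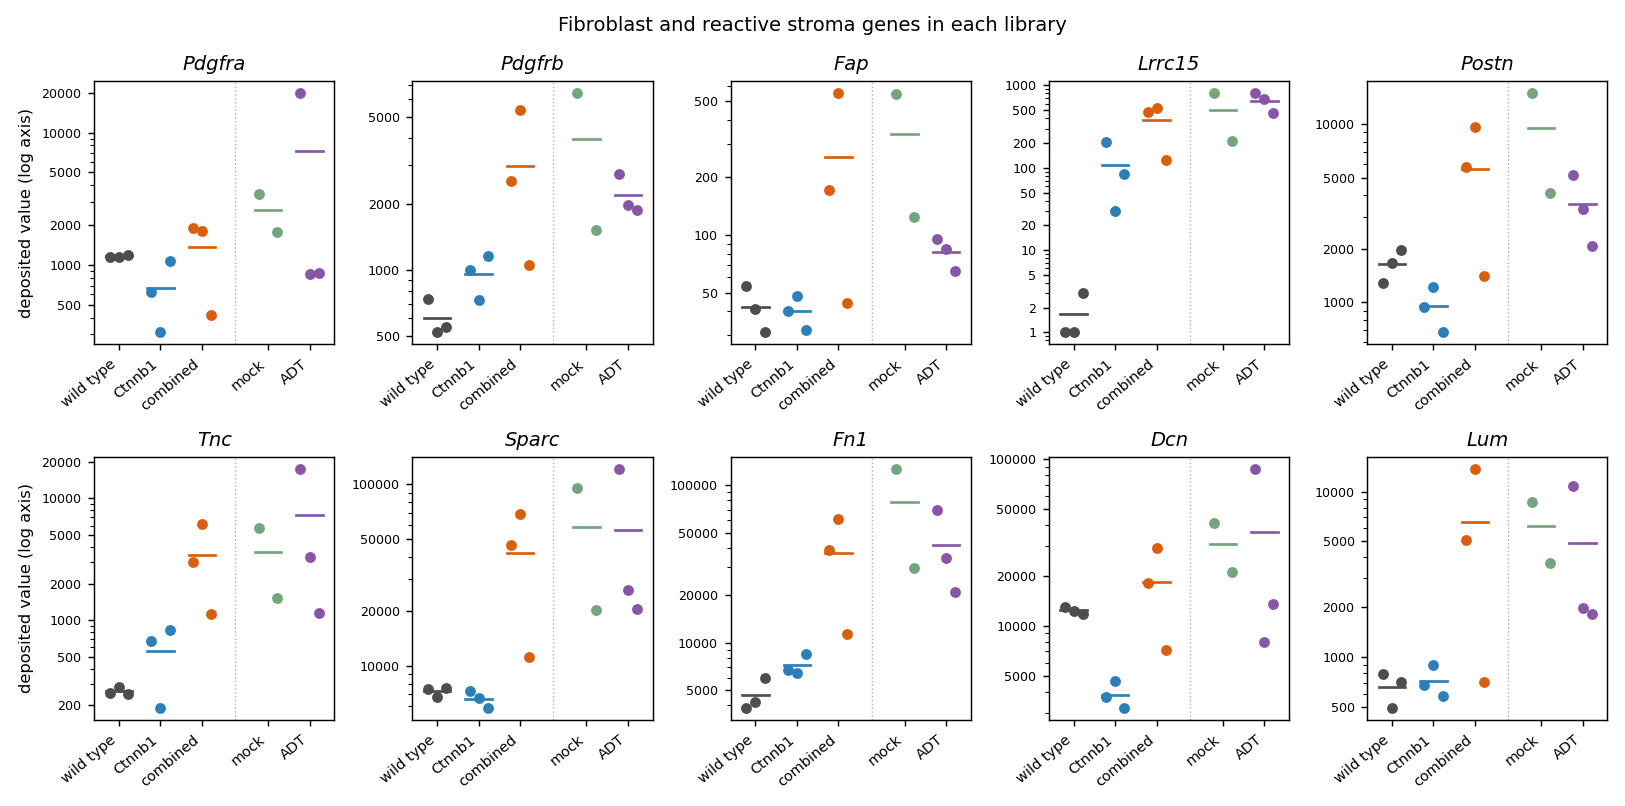
Deposited value (log axis, scaled read counts) of each of the 10 genes in each library; points are libraries, bars are group means, and the dotted line separates the genotype libraries from the inducible model, whose levels are on another scale. Lrrc15 sits at 1 to 3 in wild type and at 30 or more in every tumour library.

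The genotype comparison asks which stromal genes differ between wild-type prostate and tumours with the stable beta-catenin allele, alone or combined. Of the 10 genes, 6 rose in the combined tumours: Lrrc15, Tnc, Fn1, Lum, Sparc and Pdgfrb, by 2.03 to 6.97 on the log2 scale. Fap, Postn, Dcn and Pdgfra did not pass the test, and none fell. In the Ctnnb1 tumours Lrrc15 rose by 5.02, Dcn fell by 1.70, and the other 8 genes did not pass. Both comparisons use the same 3 wild-type libraries.

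A gene was called at an adjusted p under 0.05 in limma's moderated test on log2(value + 1), fitted over all 9 genotype libraries and adjusted by Benjamini-Hochberg over 13905 genes. Of all genes tested, 57.8% were called in the combined comparison (28.3% higher, 29.5% lower) and 58.5% in the Ctnnb1 comparison (28.9% higher, 29.6% lower). The 10 genes had a median change of 2.11 in the combined tumours, where the median of all genes was -0.01, and of 0.03 in the Ctnnb1 tumours, where it was 0.00. The 2 of 10 called in the Ctnnb1 tumours are a smaller share than among all genes. Without regard to the test, 5 of 10 genes lay above wild type without overlap in the combined tumours (32.1% of all genes) and 0 below (34.0%), and in the Ctnnb1 tumours 2 lay above (35.9%) and 3 below (35.6%). Without combined replicate 12, 9 of the 10 genes were called higher in the combined tumours, all but Pdgfra. The rises of 4 called genes were lowest without combined replicate 11 and highest without replicate 12: from 1.65 to 2.96 for Sparc, 2.18 to 3.40 for Fn1, 2.81 to 4.04 for Tnc and 1.46 to 2.63 for Pdgfrb. The SE of a gene pools the spread of all 3 groups, so the wide spread of the combined tumours also enters the Ctnnb1 test. With only the 6 libraries compared in the fit, the Ctnnb1 comparison called 3 genes higher (Lrrc15, Fn1 and Pdgfrb) and 2 lower (Dcn and Postn).

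**Figure D2:**
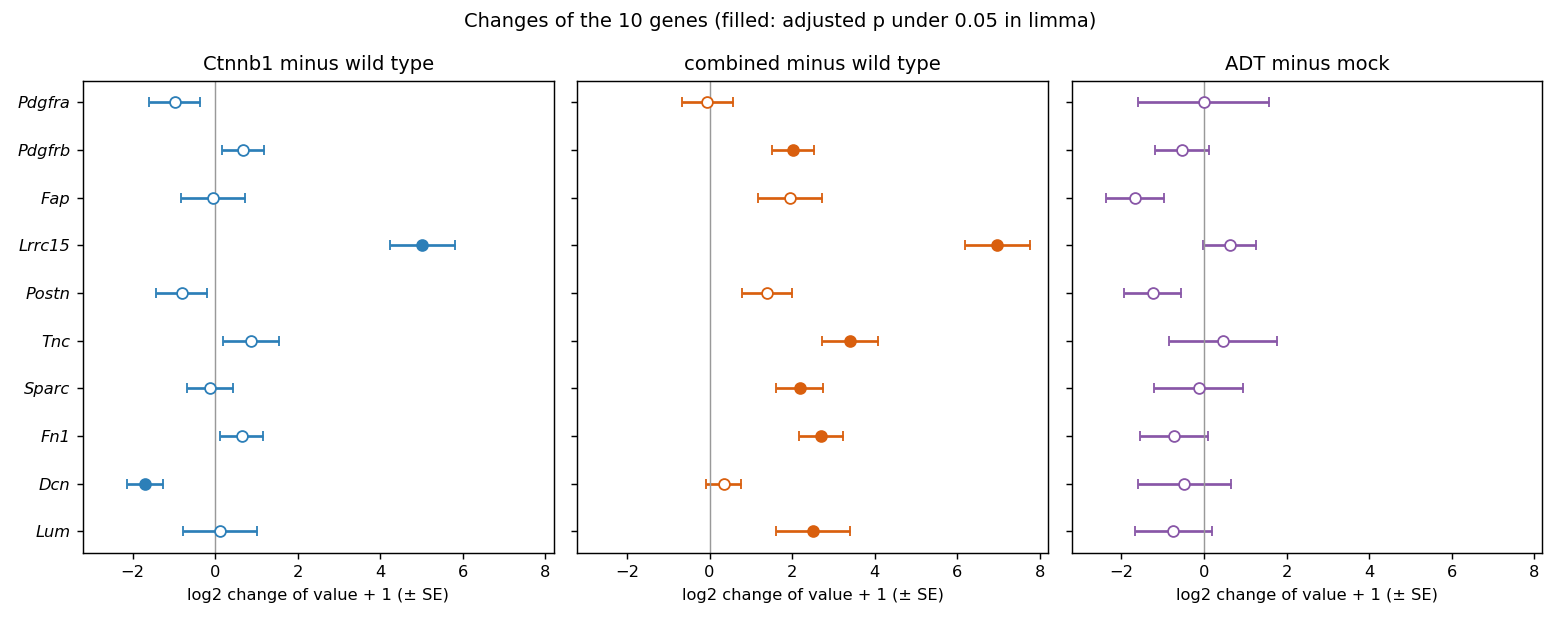
Log2 change of value + 1 with its moderated standard error for each gene in the 3 comparisons; filled points have an adjusted p under 0.05 in limma. Lrrc15 and Dcn are filled in the Ctnnb1 panel, 6 genes in the combined panel and none in the ADT panel.

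Among the receptors, Pdgfra (Entrez 18595, chr5:75152292-75198215, plus strand, GRCm38) read 1159, 1146 and 1192 in wild type, 625, 310 and 1069 in the Ctnnb1 tumours and 1910, 1807 and 417 in the combined tumours. All 3 Ctnnb1 libraries lay below the wild-type range, and the combined libraries lay on both sides of it. Its log2 change was -0.98 (SE 0.62, adjusted p = 0.202) in the Ctnnb1 and -0.05 (SE 0.62, adjusted p = 0.954) in the combined tumours, and neither passed. The range over the settings tried ran from -0.42 to 0.67 in the combined tumours, so no direction is given there.

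Pdgfrb (Entrez 18596) read 736, 518 and 549 in wild type, 994, 725 and 1162 in the Ctnnb1 tumours and 2554, 5332 and 1047 in the combined tumours. Every combined library exceeded every wild-type library, and Pdgfrb rose there by 2.03 (SE 0.51, adjusted p = 0.00898). In the Ctnnb1 tumours replicate 14 overlapped wild type, and the change of 0.67 (SE 0.51, adjusted p = 0.282) did not pass. Within a library, the ratio of Pdgfrb to Pdgfra values was 0.635, 0.452 and 0.461 in wild type. It was 1.59, 2.34 and 1.09 in the Ctnnb1 tumours and 1.34, 2.95 and 2.51 in the combined tumours, above wild type in all 6 tumour libraries. This was not particular to Pdgfrb. Against Pdgfra, 8 of the 9 other genes were higher without overlap in the combined tumours. In the Ctnnb1 tumours 4 of 9 were: Pdgfrb, Lrrc15, Tnc and Fn1. The share of all genes higher against Pdgfra is not given here.

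Fibroblast activation protein (Fap, Entrez 14089, chr2:62500943-62574075, minus strand) is a serine protease of the cell surface. It read 54, 41 and 31 in wild type, 40, 48 and 32 in the Ctnnb1 tumours and 172, 551 and 44 in the combined tumours. The Ctnnb1 values lay inside the wild-type range, and so did combined replicate 12, while the other two combined libraries stood far above it. Neither change passed (-0.05, SE 0.78, adjusted p = 0.958 in the Ctnnb1 tumours, and 1.95, SE 0.78, adjusted p = 0.0584 in the combined tumours). Without combined replicate 12 Fap was called, at 2.88 (adjusted p = 0.00206).

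Lrrc15 (Entrez 74488, chr16:30269302-30283256, minus strand), a membrane protein with leucine-rich repeats that marks a subset of activated fibroblasts, read 1, 1 and 3 in wild type. It read 208, 30 and 83 in the Ctnnb1 tumours and 475, 530 and 124 in the combined tumours. All 6 tumour libraries stood above the wild-type range, and the tumour groups overlapped each other. The change was 5.02 (SE 0.79, adjusted p = 9.77e-04) in the Ctnnb1 and 6.97 (SE 0.79, adjusted p = 1.90e-04) in the combined tumours. Since wild type is close to zero, these sizes depend on the pseudocount of 1: with 8 in its place they were 3.24 and 5.08, and both were called. Lrrc15 passed in each of the 16 alternative settings of both comparisons, with adjusted p up to 0.00508. The genotype table lists no gene with a mean under 15.6 over the 9 libraries. Lrrc15 is therefore listed only through its tumour values, and these refits of the same libraries are no separate support for its rise. Its change in the Ctnnb1 tumours was 4.34 without Ctnnb1 replicate 13 and 5.72 without replicate 14, and that in the combined tumours 7.64 without combined replicate 12.

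Periostin (Postn, Entrez 50706, chr3:54361109-54391037, plus strand), a matricellular protein that binds integrins and collagen, read 1286, 1672 and 1972 in wild type. It read 944, 1226 and 679 in the Ctnnb1 tumours and 5752, 9689 and 1413 in the combined tumours. The Ctnnb1 libraries all lay below wild type, and combined replicate 12 lay inside its range. Neither the change of -0.81 (SE 0.61, adjusted p = 0.282) nor that of 1.40 (SE 0.61, adjusted p = 0.0800) passed. Without combined replicate 12 the second was called (adjusted p = 7.75e-04).

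Tenascin C (Tnc, Entrez 21923, chr4:63959785-64047015, minus strand), a large glycoprotein that appears in remodelled stroma, read 251, 282 and 250 in wild type. It read 670, 190 and 829 in the Ctnnb1 tumours and 3004, 6203 and 1118 in the combined tumours. Tnc rose in the combined tumours by 3.40 (SE 0.68, adjusted p = 0.00314), with no overlap. In the Ctnnb1 tumours replicate 14 fell below the wild-type range while the other two lay above it, and the change of 0.86 (SE 0.68, adjusted p = 0.303) did not pass.

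SPARC (Sparc, Entrez 20692, chr11:55394500-55423183, minus strand), a collagen-binding matricellular protein, read 7463, 6743 and 7540 in wild type, 7302, 6708 and 5867 in the Ctnnb1 tumours and 46187, 69024 and 11158 in the combined tumours. It rose in the combined tumours by 2.18 (SE 0.56, adjusted p = 0.0103), with every library above wild type. The Ctnnb1 libraries overlapped wild type (-0.13, SE 0.56, adjusted p = 0.849).

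Fibronectin (Fn1, Entrez 14268, chr1:71585520-71653200, minus strand), the adhesive glycoprotein on which other matrix proteins assemble, read 3835, 4221 and 5949 in wild type. It read 6695, 6390 and 8517 in the Ctnnb1 tumours and 38543, 61097 and 11272 in the combined tumours. The 3 groups did not overlap. Fn1 rose in the combined tumours by 2.70 (SE 0.53, adjusted p = 0.00287), and the Ctnnb1 change of 0.64 (SE 0.53, adjusted p = 0.325) did not pass. The difference between the tumour groups was not tested for any gene.

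Decorin (Dcn, Entrez 13179, chr10:97479609-97518143, plus strand) read 12993, 12314 and 11673 in wild type, 3720, 4616 and 3193 in the Ctnnb1 tumours and 18144, 29310 and 7174 in the combined tumours. It fell in the Ctnnb1 tumours (-1.70, SE 0.43, adjusted p = 0.00981), where all 3 libraries lay far below wild type, and it was called in each of 16 alternative settings. Of the combined libraries 2 lay above the wild-type range and replicate 12 below it, and the change of 0.34 (SE 0.43, adjusted p = 0.515) did not pass. Without replicate 12 it was 0.90 and was called (adjusted p = 0.00872).

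Lumican (Lum, Entrez 17022, chr10:97565128-97572703, plus strand) lies beside Dcn on the same chromosome. It read 793, 490 and 701 in wild type, 678, 890 and 577 in the Ctnnb1 tumours and 5138, 13783 and 702 in the combined tumours. The Ctnnb1 libraries overlapped wild type (0.12, SE 0.90, adjusted p = 0.916). In the combined tumours 2 libraries stood far above wild type and replicate 12 lay inside its range, so the rise of 2.50 (SE 0.90, adjusted p = 0.0410) rests on 2 libraries. The call was lost without any 1 of wild-type replicates 1, 2 and 3 or combined replicates 10 and 11, and also with only the 6 libraries compared or with no trend in the prior variance. The change was 1.55 without combined replicate 11 and 3.70 without replicate 12, where it was called.

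The other 9 genes were set against decorin, and then against lumican, within each library. On the log2 scale of (gene + 1) over (Dcn + 1), Fn1 averaged -1.43 ± 0.41 in wild type, 0.91 ± 0.48 in the Ctnnb1 and 0.93 ± 0.24 in the combined tumours (SD, n = 3). Sparc averaged -0.77 ± 0.12, 0.80 ± 0.23 and 1.07 ± 0.38 in the same order (SD, n = 3), so both ratios, which are not per length, changed sign. Lrrc15 went from -12.25 ± 0.65 to -5.54 ± 1.55 and -5.63 ± 0.33, and Lum from -4.25 ± 0.35 to -2.43 ± 0.05 and -2.09 ± 1.15. The ratios of 8 of the 9 genes, all but Pdgfra, were higher without overlap in both tumour groups. Among all genes 83.3% were higher against decorin in the Ctnnb1 tumours, where Dcn itself fell, so 8 of 9 is near the background there, and 11.8% in the combined tumours. Against lumican instead, only Lrrc15 of 9 was higher without overlap in the combined tumours (0.877% of all genes), and Dcn and Pdgfra were lower (39.9%). Since Lrrc15 is listed only through its tumour values, its place in that small share is no separate support. In the Ctnnb1 tumours 3 of 9 ratios to lumican did not overlap wild type (39.0% of all genes in either direction), Lrrc15 higher and Postn and Dcn lower. Dcn was lower relative to Lum in every tumour library of both groups.

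**Figure D3:**
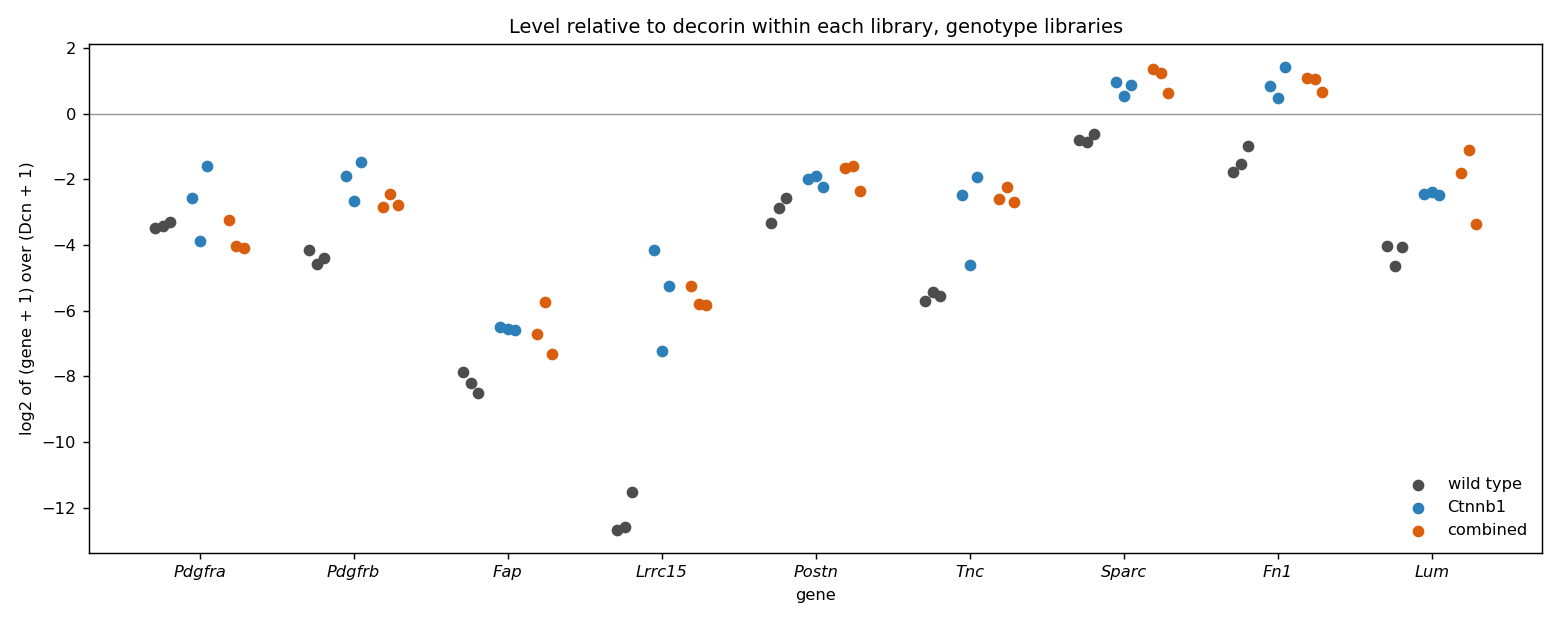
Log2 of (gene + 1) over (Dcn + 1) within each genotype library for the 9 other genes; points are libraries, coloured by group. Wild-type points lie below both tumour groups for every gene except Pdgfra.

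Ligands of the PDGF receptors divided in the Ctnnb1 tumours. Pdgfb, which binds both receptors, read 157, 166 and 157 in wild type and 336, 375 and 385 in the Ctnnb1 tumours, a rise of 1.18 (SE 0.14, adjusted p = 2.73e-04). Pdgfa read 817, 683 and 634 against 335, 294 and 294, a change of -1.20 (SE 0.14, adjusted p = 1.96e-04). Pdgfc rose and Pdgfd fell, the first losing its call in 4 leave-one-out fits and the second when libraries were brought to equal totals. In the combined tumours Pdgfb read 681, 652 and 497 and rose by 1.91 (SE 0.14, adjusted p = 3.11e-05), Pdgfc rose by 0.88 (SE 0.27, adjusted p = 0.0221), and the other 2 of 4 ligands were not called. The call of Pdgfc was lost without wild-type replicate 1 or without combined replicate 11, with adjusted p up to 0.0780.

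Other matrix genes were counted from lists of the wider stroma. Of 7 other small leucine-rich proteoglycans tested, 0 were higher and 4 lower in the Ctnnb1 tumours (median -1.81), among them Ecm2 (-2.73, SE 0.61) and Podn (-1.28, SE 0.30). The combined tumours had 1 higher, the collagen-binding biglycan (Bgn, 2.25, SE 0.58, and 3.06 without combined replicate 12), and 0 lower (median -0.17). Of 22 other matricellular and adhesive glycoproteins, 2 were higher and 6 lower in the Ctnnb1 tumours (median -0.73). Thrombospondin 1 (Thbs1), an adhesive glycoprotein, rose by 2.17 (SE 0.37), while the proteoglycan Spock2 (-3.69, SE 0.47) and the calcium-binding Smoc1 (-2.18, SE 0.33) fell. The combined tumours had 10 higher and 4 lower (median 1.15), with Thbs1 at 4.10 (SE 0.37), Wisp2 at 3.62 (SE 0.41) and Cyr61 at 2.52 (SE 0.30). Wisp2 and Cyr61 encode secreted proteins of the CCN family.

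Receptors and crosslinkers of the matrix came next. Of 10 integrin and syndecan genes whose products bind the matrix proteins above, 2 were higher and 2 lower in the Ctnnb1 tumours, and 6 were higher and 0 lower in the combined tumours. Itgav, the alpha chain of several fibronectin-binding integrins, rose in both (0.52, SE 0.10, and 0.79, SE 0.10). Itgb6, an epithelial integrin chain that pairs with it, rose in the combined tumours by 3.23 (SE 0.63). Of 13 elastic fibre and crosslinking genes, 3 were higher and 2 lower in the Ctnnb1 tumours (median -0.27) and 9 higher and 0 lower in the combined tumours (median 1.63). Elastin (Eln) fell in the Ctnnb1 tumours (-2.06, SE 0.56), and the crosslinking enzyme gene Loxl2 (3.31, SE 0.37) and fibrillin 1 (Fbn1, 2.72, SE 0.70, and 3.67 without combined replicate 12) rose in the combined tumours. Adjusted p for the called genes named in these lists ran up to 0.0131.

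Of 12 other markers of resident fibroblasts tested, 1 was higher and 4 lower in the Ctnnb1 tumours (median -1.08) and 3 higher and 1 lower in the combined tumours (median 0.06). Gelsolin (Gsn), an actin-severing protein, read 37019, 33928 and 32020 in wild type and 2217, 4006 and 2679 in the Ctnnb1 tumours (-3.57, SE 0.22, adjusted p = 1.81e-05). The combined tumours read 6076, 4435 and 4019 (-2.85, SE 0.22, adjusted p = 3.72e-05). The chemokine gene Cxcl12 fell in the Ctnnb1 tumours (-2.80, SE 0.74, adjusted p = 0.0118). Pi16 (2.56, SE 0.69, adjusted p = 0.0127) and the gelatinase gene Mmp2 (2.44, SE 0.64, adjusted p = 0.0118) rose in the combined tumours. Pi16 was 1.92 without combined replicate 10, and Mmp2 was 1.82 without replicate 11 and 3.32 without replicate 12, all called. Ly6a rose in both tumour groups (1.74, SE 0.29, and 2.92, SE 0.29); it is also a gene of epithelial progenitors and leukocytes.

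Of 11 other activated fibroblast markers, 1 was higher and 4 lower in the Ctnnb1 tumours (median -0.44) and 6 higher and 2 lower in the combined tumours (median 1.27). Inhba, which encodes a subunit of activin A, rose in both, by 1.27 (SE 0.34, adjusted p = 0.0127) and 3.18 (SE 0.34, adjusted p = 1.39e-04). The metalloprotease gene Adam12 read 31, 21 and 39 in wild type and 506, 1647 and 177 in the combined tumours (4.12, SE 0.70, adjusted p = 0.00136), a change of 3.30 without combined replicate 11 and of 4.91 without replicate 12. Acta2 and Tagln, contractile genes of myofibroblasts and of smooth muscle, fell in both, with changes of -5.60 (SE 0.51) and -5.63 (SE 0.45) in the Ctnnb1 and of -3.14 (SE 0.51) and -3.17 (SE 0.45) in the combined tumours, where Acta2 was at -2.50 without replicate 12. Of 12 mesenchymal transcription factor genes, 0 were higher and 6 lower in the Ctnnb1 tumours (median -1.32) and 1 higher and 4 lower in the combined tumours (median -0.12). Tcf21, Osr1, Osr2 and Twist2 fell in both. Tcf21 changed by -3.06 (SE 0.28) and -1.63 (SE 0.28), and Osr2 by -4.00 (SE 0.49) and -2.59 (SE 0.49).

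**Figure D4:**
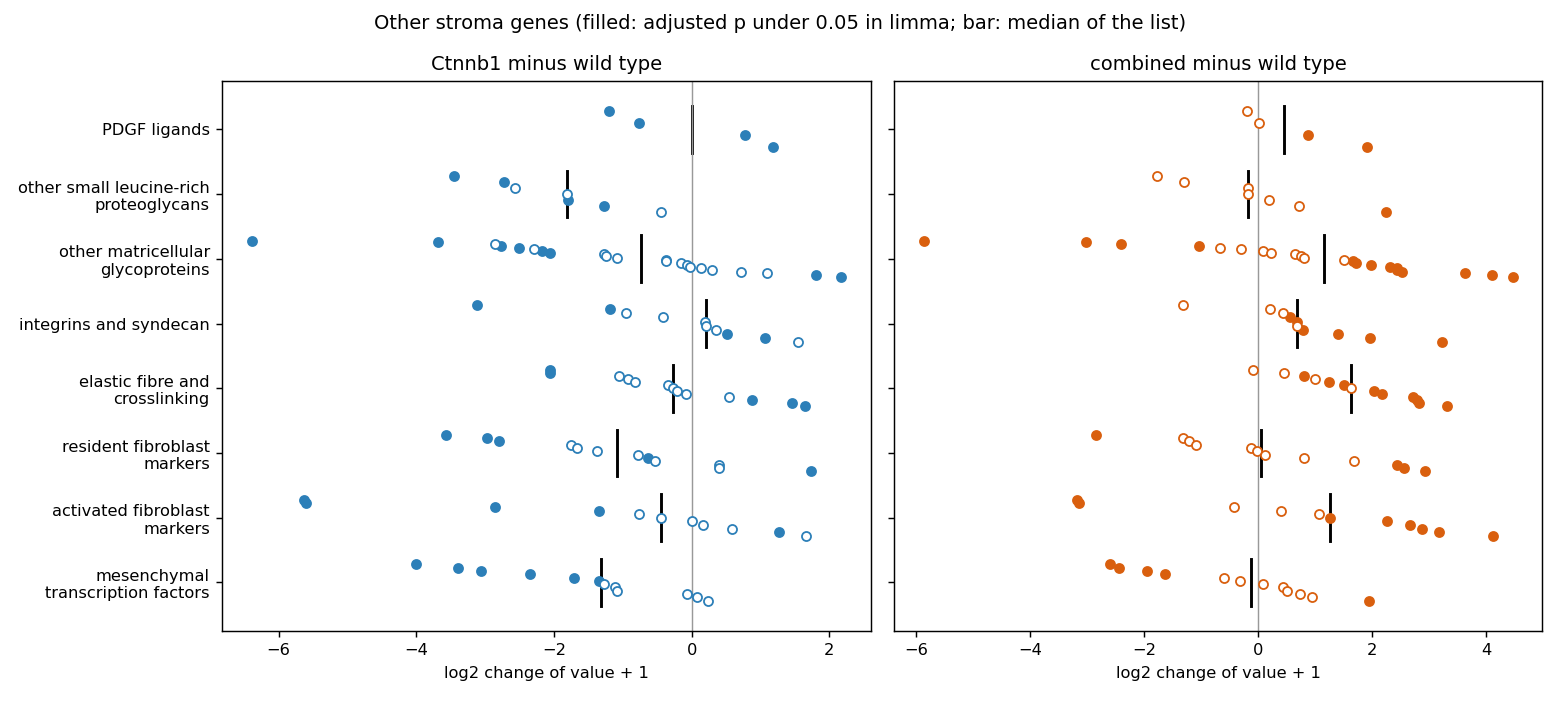
Log2 change of value + 1 against wild type for the tested genes of 8 stromal lists; points are genes, filled where the adjusted p in limma is under 0.05, and bars are list medians. Most filled points of the elastic fibre, integrin and matricellular lists lie above 0 in the combined panel, and those of the transcription factors lie below 0 in the Ctnnb1 panel.

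Markers of other cell types moved with these results. All 8 smooth muscle markers fell in both tumour groups, and their summed value was 87488 to 112530 in wild type, 889 to 1739 in the Ctnnb1 and 2937 to 8367 in the combined tumours. Myh11, the smooth muscle myosin heavy chain, changed by -7.30 (SE 0.38) and -5.02 (SE 0.38). All 6 nerve and Schwann cell markers fell in the Ctnnb1 and 5 of 6 in the combined tumours (summed 2580 to 2901 in wild type, 230 to 342 and 182 to 301 in the tumours). Seminal vesicle secretory genes, of which 6 of 6 fell in the Ctnnb1 and 1 of 6 in the combined tumours, summed to 446343 to 4389271 in wild type, 184 to 4401 in the Ctnnb1 and 39386 to 206322 in the combined tumours, and skeletal muscle genes (5 of 6 and 6 of 6 lower) to 8892 to 119083, 7 to 8663 and 48 to 995. Adipocyte markers had 0 of 4 called in either comparison (690 to 3236 in wild type, 508 to 722 and 760 to 1730 in the tumours). In single tumour libraries the skeletal muscle genes Pvalb, Tnnc2 and Myh4 and the seminal vesicle gene Svs1 were listed at 0; no marker of smooth muscle, nerve, adipocytes or the lists below was at 0 in a genotype library.

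Pericyte markers, cells that also use Pdgfrb, were higher for 1 and lower for 1 of 6 in the Ctnnb1 and higher for 3 of 6 in the combined tumours, and summed to 3972 to 5189 in wild type, 4287 to 4625 and 6014 to 13097 in the tumours. Rgs5, a pericyte gene, rose in the combined tumours by 2.09 (SE 0.34, adjusted p = 0.00116). Endothelial markers were higher for 1 and lower for 1 of 8 in the Ctnnb1 and higher for 5 of 8 in the combined tumours (4625 to 5696 in wild type, 5489 to 6084 and 6243 to 11930). Macrophage markers were higher for 6 of 8 and 7 of 8 (3150 to 3958, then 7483 to 9852 and 7830 to 29587), and leukocyte markers for 3 of 7 and 5 of 7 (375 to 464, then 980 to 1175 and 1111 to 4131). Epithelial markers were higher for 3 and lower for 1 of 9 in the Ctnnb1 tumours and higher for 4 and lower for 1 in the combined tumours (83407 to 98604, then 104102 to 147244 and 128709 to 178231). Combined replicate 12, lowest for all 10 fibroblast genes, was also the lowest combined library for the smooth muscle, pericyte, endothelial, macrophage and leukocyte sums and the highest for the epithelial sum. The part of these cell types in the changes of the 10 genes was not tested.

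**Figure D5:**
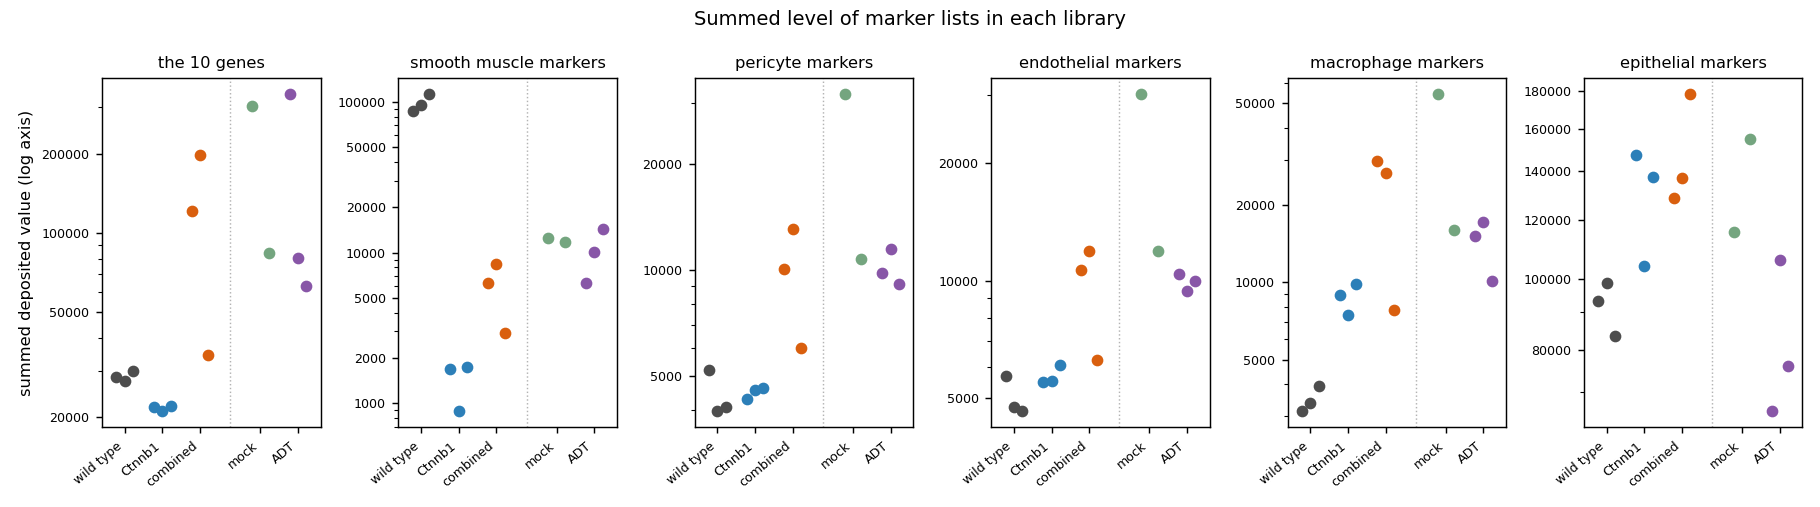
Summed deposited value (log axis) of the 10 genes and of 5 marker lists in each library; points are libraries, and the dotted line separates the genotype libraries from the inducible model. Smooth muscle markers sum to 87488 or more in wild type and to 8367 or less in every tumour library of the genotype set.

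The androgen deprivation comparison asks whether the stroma of the inducible tumours differs after ADT. None of the 10 genes was called, and none had an unadjusted p under 0.05. Fap alone did not overlap between the groups, at 546 and 124 in mock replicates 1 and 2 and 95, 84 and 65 in ADT replicates 1 to 3. Its change of -1.68 (SE 0.70, adjusted p = 0.341) did not pass. Of 23289 genes tested, 0.00859% were called, which is 2 genes, while 3779 had an unadjusted p under 0.05 and 33.2% did not overlap between the groups. The median change was -0.50 over the 10 genes and -0.02 over all genes.

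The spread within the ADT and mock groups was wide. Pdgfra read 3423 and 1784 in the mock libraries and 19900, 856 and 865 in the ADT libraries. ADT replicate 1 stood 23.2 times above the lowest ADT library, and the change was -0.01 (SE 1.58, adjusted p = 0.998). Dcn read 41401 and 20865 against 87649, 7930 and 13459, and Tnc 5722 and 1515 against 17560, 3309 and 1145. In both genes ADT replicate 1 lay above the mock libraries. Below them lay ADT replicates 2 and 3 for Dcn and ADT replicate 3 for Tnc.

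Sparc read 95956 and 20319 in the mock and 121975, 26300 and 20614 in the ADT libraries, and Lum 8690 and 3710 against 10859, 1980 and 1827. Without ADT replicate 1 the median change of the 10 genes was -1.35, and without mock replicate 1 it was 0.39, with 0 genes called in either fit. The ratio of Pdgfrb to Pdgfra was 1.87 and 0.853 in the mock and 0.138, 2.31 and 2.16 in the ADT libraries, lowest in ADT replicate 1.

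Pdgfrb (6404 and 1522 against 2737, 1977 and 1872), Fn1 (127136 and 29585 against 69974, 34278 and 20861) and Postn (14988 and 4117 against 5213, 3368 and 2076) overlapped as well. Their changes were -0.53 (SE 0.65), -0.73 (SE 0.82) and -1.24 (SE 0.69), with adjusted p from 0.451 to 0.734. Lrrc15 read 810 and 210 in the mock and 807, 685 and 462 in the ADT libraries (0.62, SE 0.64, adjusted p = 0.681), so it was detected in every tumour library of the inducible model. With 2 mock libraries of unequal level, a difference in these genes was not detectable unless it exceeded that spread.

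In the other stromal lists 0 genes were called. The 11 other activated fibroblast markers had a median change of -0.22. Resident fibroblast markers had a median change of -1.63, with 10 of 13 lower without overlap against 16.8% of all genes. Of these 13 markers 8 had an unadjusted p under 0.05, as had 3779 of all 23289 genes. They summed to 138368 and 71819 in the mock and 55389, 38374 and 43773 in the ADT libraries. A large part of the mock sums came from C3, given below, and Ly6a. Ly6a, also a gene of epithelial progenitors and leukocytes, read 16726 and 19782 in the mock and 9313, 6170 and 4159 in the ADT libraries. The sums are thus not a measure of fibroblasts alone. Other lists had genes lower without overlap too: 6 of 9 epithelial, 9 of 24 other matricellular and 3 of 8 endothelial genes. Of the 11 other activated fibroblast markers 0 were. Complement C3 read 39627 and 22352 in the mock and 8214, 8024 and 8323 in the ADT libraries (-1.86, SE 0.26, adjusted p = 0.112), and Dpep1, a membrane dipeptidase gene, had a change of -2.22 (SE 0.53, adjusted p = 0.187). S100a4, a calcium-binding protein gene of fibroblasts and of leukocytes, read 866 and 396 against 8988, 9952 and 5182 (3.72, SE 0.46, adjusted p = 0.0999). Thbs1 had a change of -1.27 (SE 0.29, adjusted p = 0.182) and Pdgfb of -0.98 (SE 0.37, adjusted p = 0.30). Beside these, pericyte markers summed to 31681 and 10787 in the mock and 9107 to 11473 in the ADT libraries, endothelial markers to 30106 and 11895 against 9430 to 10371, macrophage markers to 54070 and 15965 against 10098 to 17241, and epithelial markers to 115609 and 154761 against 65999 to 105853. None of these 4 lists had a called gene or a marker at 0. Seminal vesicle genes summed to 4563 and 253178 in the mock and 2 to 7878 in the ADT libraries, where Svs1, Svs2, Svs3a and Svs6 were at 0 in replicate 1. The part of these cell types was not tested.

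The genes whose levels ran most like those of 3 of the markers over the 9 genotype libraries were found by Pearson's r of log2(value + 1), among genes with a mean of at least 50. The libraries share 3 groups and a common scaling, so the values describe these libraries only. Closest to Postn were Mmp23 (0.987), P4ha3, Fam217b, Pip4k2b and Serpinf1 (0.976), and closest to Dcn were Fzd2 (0.991), Htra3, Ntpcr, Mfap4 and Ssc5d (0.982). For Lrrc15 they were Irg1 (0.993), Enc1, Blvra, Pnp and S1pr2 (0.989). Irg1, a gene of activated macrophages, read 1, 0 and 1 in wild type, 80, 13 and 32 in the Ctnnb1 and 112, 182 and 59 in the combined tumours.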

How the data were processed

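Libraries from RNA with an integrity number over 7.3 were read as 90 nt pairs at BGI, per the labels' protocols. The submitters' processing notes name DESeq2 1.14.1, R 3.2.3, HTSeq 0.6.0, TopHat2 2.1.0 with Bowtie2 2.2.6.0, FastQC 0.11.4 and the build GRCm38.p3, without roles or settings. Each deposited value is a score, neither a raw count nor a rate: judged from the numbers, the authors scaled every library's counts by its own size factor and rounded them. The size factors are not used here, so depth per gene, and the precision it gives, is unknown. The design allowed for raw counts, and its stated test for scaled values was used.

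The 15195 features of the genotype table gave 13905 genes after those without an Entrez number (631), Entrez numbers shared by several features (118) and repeated values (389) were left out. The inducible table of 42847 features gave 39179. The genotype table lists no gene with a mean under 15.6. A gene was tested with a value of at least 1 in 3 genotype or 2 inducible libraries. Values were fitted as log2(value + 1) in limma 3.58.1 (R 4.3.3) with a trend in the prior variance, and p-values were adjusted by Benjamini-Hochberg over all genes of a comparison. The fitting code was first run on simulated counts with the same dispersion for every gene and few changed genes, unlike these data. That run checks the code only, not the fitness of the test for these libraries. SE is the moderated standard error. Figures were made in Python 3.11.15 with matplotlib 3.10.9. Positions and exon lengths came from GENCODE (GRCm38), exons of all transcripts merged.

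The 10 genes, the lists and the rule for named genes were chosen with earlier results of these data known. The rule takes the 10 genes, up to 4 called genes of each list by smallest p, or up to 3 where none was called, and 5 genes by likeness; the text names part of these. Gene symbols are those of the files (Wisp2 is Ccn5 and Cyr61 is Ccn1). A further genotype group (n = 3), scaled separately, and contrasts that rest on the further engineered change alone are not reported here. Alternatives covered the pseudocount, the filter, the scaling, the prior variance, the libraries in the fit, each library left out and a replicate block.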

Additional observations from a re-analysis of the deposited data

How the results depend on the processing

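Depth limits Lrrc15 in wild type, where it rests on very few reads, and the spread of 2 mock libraries limits the ADT comparison. For the 51 changes named for genes outside the 10 (a gene named in both tumour groups counts in each), 799 of 806 refits kept direction and call and 7 lost the call. These genes were picked by smallest p in these same data, so a kept call is largely given in advance. Those named after ADT were called under no setting, so their 70 refits had no call to lose. With no filter the genotype fits equalled the main fits, so that setting adds nothing to the 16 alternatives named above. At equal library totals the median change of all genes became 0.49 in the Ctnnb1 and 0.50 in the combined comparison, and the share of higher calls went from 49.4% to 78.9% and from 48.9% to 81.9%. The 10 genes then had medians of 0.52 and 2.62. Under that scaling Fap and Postn were also called in the combined tumours, and the uncalled changes of Fap (0.43) and Sparc (0.36) in the Ctnnb1 and Pdgfra (0.47) in the combined tumours reversed. Quantile scaling reversed Fap in the Ctnnb1 tumours (0.52), called Fap in the combined tumours, and turned Sparc to 0.02 after ADT, and TMM turned Pdgfra to 0.01 after ADT. With only the 6 libraries compared, 3 of the 10 genes were called higher and 2 lower in the Ctnnb1 tumours. The causes were not tested.

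Leaving out 1 library at a time moved uncalled changes across 0. In the Ctnnb1 comparison Fap ranged from -0.25 to 0.14 and Lum from -0.08 to 0.26, and in the combined comparison Pdgfra ranged from -0.42 to 0.67 and Dcn from -0.11 to 0.90. In the ADT comparison the ranges were -1.52 to 0.75 for Pdgfra, -1.57 to 0.51 for Pdgfrb, -0.35 to 1.59 for Lrrc15, -0.60 to 1.42 for Tnc, -1.25 to 0.99 for Sparc, -1.79 to 0.32 for Fn1 and -1.51 to 0.22 for Dcn. Genes called after ADT numbered 2, and 5 with a pseudocount of 8, 60 among genes with a mean of at least 50, 44 at equal totals, 29 with a robust prior variance, 0 with no trend and 0 with any library left out (2334 to 3979 with an unadjusted p under 0.05). None of the 10 genes was called in the ADT comparison under any setting. Where 1 mock library is left, its variation is taken to be that of the ADT libraries.

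The mock and ADT libraries share the numbers 1 and 2. With the replicate block 0 genes were called after ADT (3206 with an unadjusted p under 0.05), Pdgfra changed by 0.74 and Sparc by 0.36, both reversed and neither called. Deviations from the group means correlated at 0.27 for the libraries numbered 1 and 0.12 for those numbered 2, over 14519 genes, while mock replicate 2 correlated at 0.19 with ADT replicate 3, which shares no number with it. With 2 mock libraries their deviations mirror each other (-0.27 for mock replicate 2 with ADT replicate 1). These libraries share only a number, since the labels do not tie them to an animal or day. No paired analysis was possible for the genotype groups because their numbers are not shared.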
